A study of Rattus norvegicus with 12 samples.

Results

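Loss of the Thbs1 gene, which encodes thrombospondin-1 (Tsp1), was examined in rat aortic smooth muscle cells under stretch. The 3 libraries labelled Tsp1KO_stretch (KO) were compared with the 3 labelled WT_stretch (WT), 6 of the 12 libraries of the series, across the 22081 genes of the table. All were primary aortic smooth muscle cells of the Wistar rat at passages 5 to 8, grown in 20% serum. After 24 h without serum, both stretched groups received uniaxial stretch of 20% strain at 1.0 Hz for a time that is not given. The other 6 libraries, of static WT and static KO cells treated alike apart from stretch, show which genotype differences were present without it. For the KO, cells took up a Cas9-GFP plasmid with a guide to Thbs1, were sorted for GFP and were cloned by limiting dilution. How many clones were used is not given, and WT cells are not described as sorted or cloned, so genotype, clone and cloning cannot be told apart in any result here. Whether replicate libraries are separate cultures is not stated, and p-values may thus reflect technical spread alone.

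Tsp1 is a large secreted matrix protein that binds integrins and the receptor CD47 and can release TGF-beta from its latent form. In the arterial wall, smooth muscle cells sense cyclic strain through integrins and the actin cytoskeleton. Strain acts on transcription through serum response factor (SRF) with its myocardin-family partners, and through YAP and TAZ, the effectors of the Hippo pathway. Contractile genes such as those for smooth muscle actin and calponin are the classical SRF targets of this cell type.

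The stretched libraries held 19893904 to 35514318 reads in annotated exons. Library 3 of stretched KO stood apart, with 16.38% of its exon reads across exon junctions against 28.07% to 29.84% in the other 11 libraries, and 83.11% uniquely mapped reads against 86.45% to 89.15%. Some results are given both with and without it. Other counts are given with it only, and some of these also move without it. The libraries numbered 3 also differed from the rest in all 4 groups. Intron reads were 9.15% to 11.29% of their gene reads, against 14.75% to 16.46% in the libraries numbered 1 and 2. The main test has no term for library number. The 8 defining smooth muscle markers, Acta2 among them, were present in every group and summed to 4994 to 6125 CPM (exon reads scaled to a common effective library size) in stretched WT and 2986 to 3987 in stretched KO. In bulk RNA, fewer cells of a type and less RNA per cell cannot be told apart.

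Thbs1 was at 1704, 1556 and 1052 CPM in the stretched WT libraries and at 435, 419 and 283 in the stretched KO libraries. The gene (ENSRNOG00000045829) lies on chromosome 3, positions 109862117 to 109873466 of Rnor_6.0. The groups did not overlap, and KO retained a measurable level. The log2 fold change of KO over WT was -1.92 ± 0.24 (SE, n = 3 per group), with a false discovery rate (FDR) of 0.000123 by edgeR's quasi-likelihood test, adjusted over all tested genes. Reads over all exons measure the transcript and do not read the edited site.

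Of 14825 tested genes, 1761 were higher and 1290 lower in stretched KO at FDR under 0.05, which is 11.9% and 8.7% of them and together 20.6%. A change of at least 2-fold as well was met by 983 higher and 483 lower genes, together 9.89%. With library numbers as a block, 2856 were higher (19.3%) and 2745 lower (18.5%), or 37.8% in all. The WT and KO libraries did not overlap in CPM for 4988 genes, or 33.6%, of which 3041 passed the FDR threshold.

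Most of this difference was also present without stretch. Static KO against static WT gave 1800 higher (12.1%) and 1277 lower genes (8.61%), or 20.8% of those tested. The static and stretched comparisons have no library in common but share 1 estimate of spread, and clone and cloning go with genotype in both. They shared 2495 genes with the same direction, which is 81.8% of the stretched list and 81.1% of the static list, and 0 genes were called in opposite directions. Of the 1466 genes with a 2-fold change under stretch, 1327 were also called in static culture with the same sign, or 90.5%. Across all tested genes the log2 fold changes of both conditions correlated at r = 0.801, a description over genes, which are not independent replicates.

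**Figure D1:**
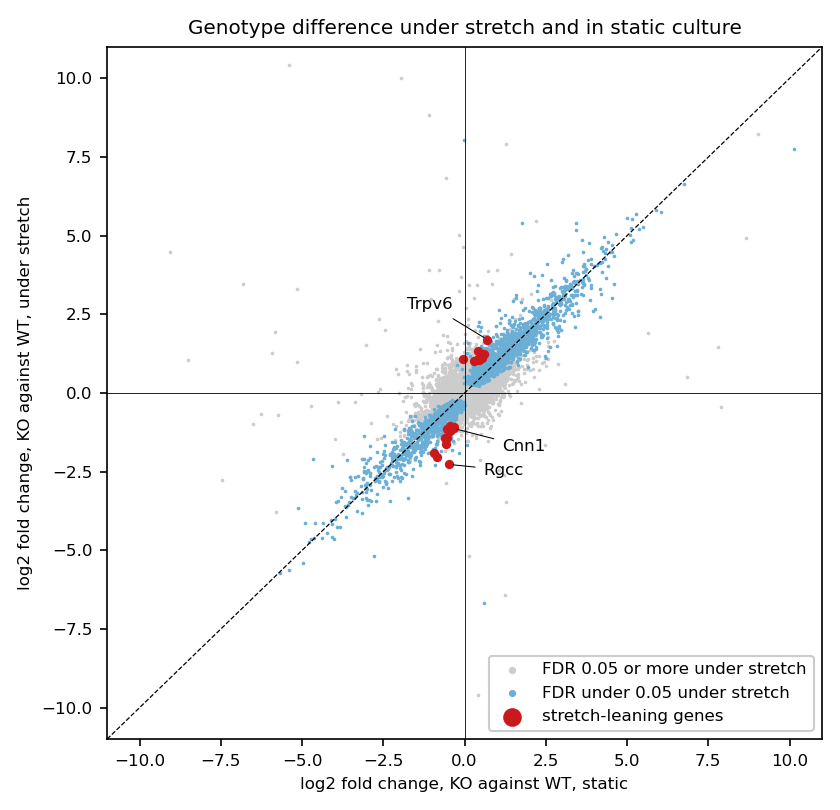
Log2 fold change of KO against WT in static culture (horizontal axis) and under stretch (vertical axis) for the 14825 tested genes, with the line of equality dashed. Genes called under stretch are blue and lie mostly along the line (r = 0.801 over all genes), and the 22 stretch-leaning genes, in red, are farther from 0 on the vertical axis than on the horizontal one.

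Markers of other cell types were measured beside these differences, which under stretch took in 20.6% of all tested genes. Mesothelial markers summed to 89.6 to 108 CPM in stretched WT and 362 to 431 in stretched KO. Of 9 tested, 5 rose, Upk1b by 5.77 on the log2 scale, Lrrn4 by 4.18, Cdh3 by 3.81, Rspo1 by 1.34 and Msln by 0.98, while Wt1, Krt19 and Prg4 were below 1 CPM in all stretched libraries. Epithelial markers summed to 31.1 to 41 and 58.5 to 83.4 CPM, and 3 of 11 rose, the keratins Krt14, Krt18 and Krt8, with Epcam and Cdh1 below 1 CPM. Only 27% of the Krt14 reads mapped uniquely, and the call of Krt8 (FDR 0.0476) was lost without any 1 of 9 libraries and that of Krt18 without any 1 of 4.

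Fibroblast markers summed lower in KO, at 28342 to 34565 against 42358 to 61613 CPM, a sum that the collagens Col1a1 (mean 31996 CPM in WT and 19522 in KO) and Col3a1 (18610.3 and 9422) made up for the most part. Among them 6 rose and 4 fell of 13 tested, with Thy1, Clec3b and Fap up by 2.66, 2.62 and 2.51 and Dpt down (log2 fold change -2.69). Endothelial markers summed to 44.6 to 50.1 and 43.4 to 47.7 CPM, and 8 of 14 were below 1 CPM. In edgeR's test 0 of 9 passed without the block, with Egfl7 at -0.03 (FDR 0.948) and Tek at -0.23 (FDR 0.572). With the block 0 endothelial markers rose and 1 fell. Leukocyte markers summed to 24.4 to 33.6 and 28.1 to 34.3 CPM, with 9 of 13 below 1 CPM, Ptprc and Csf1r among them, and Laptm5 fell by 3.18. Neural crest markers summed to 68.8 to 87.1 and 25.5 to 38.3 CPM, of which Nes alone gave a mean of 72 and 24.7. It fell by 1.54 and was the 1 member called of 8 tested. Among osteochondrogenic markers 5 rose and 3 fell of 11, and without library 3 of KO 4 rose and 1 fell. Among striated muscle markers 0 rose and 2 fell of 10, and among adipocyte markers 0 rose and 1 fell of 4, Lpl. The part of other cell types in the results was not tested.

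The largest falls and rises were ranked among called genes with a mean log2 CPM of 3 or more, at least 80% uniquely mapped reads, a named symbol and groups that did not overlap, so that larger fold changes of genes outside these filters are not shown. The largest such fall was in Epha3, an ephrin receptor tyrosine kinase, which was at 61, 70.4 and 41.9 CPM in WT and at 1.32, 0.881 and 1.08 in KO. Every KO library lay far below every WT library, and the log2 fold change was -5.71 ± 0.26 (SE, FDR 4.91e-08). Rgs4, which shortens G protein signalling, was at 25.7, 21.9 and 19.6 CPM in WT and 0.361, 0.441 and 0.525 in KO and fell by 5.62 on the log2 scale. Itga9, an integrin subunit, was at 19.6, 18.3 and 11.9 CPM in WT and 0.321, 0.538 and 0.331 in KO. It fell by 5.41 on the log2 scale, and every WT library was above 10 CPM while every KO library was below 1 CPM. Itgbl1, a secreted protein like the integrin beta chain, was the most abundant of the 12 in WT, at 255, 262 and 215 CPM in WT and 12.8, 13.1 and 12.6 in KO. Its KO libraries were nearly alike, with a log2 fold change of -4.25 ± 0.12 (SE, FDR 2.6e-09). The remaining 8 were Gsta4, a glutathione transferase, Ctsh, a lysosomal protease, the homeobox factors Barx1 and Dlx1, Bambi, a decoy receptor of the TGF-beta family, Mab21l1, Smtnl2 and Spon1, a secreted adhesion protein. Their log2 fold changes ran from -4.62 in Gsta4 to -3.60 in Dlx1.

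Under the same filters, the largest rise was in Anxa8, an annexin, from 0.285, 0.643 and 1.08 CPM in WT to 64, 60.7 and 80 in KO, a log2 fold change of 6.63 ± 0.40 (SE, FDR 5.56e-07). Upk1b, a uroplakin of urothelium and mesothelium, rose from 3.13, 1.46 and 2.41 to 121, 119.9 and 139.7 CPM. In both, KO libraries were at least 10 times as high as the highest WT library. Tfpi, the inhibitor of the tissue factor pathway of coagulation, rose from 4.84, 4.36 and 4.62 CPM to 134, 162 and 133, a log2 fold change of 4.96 ± 0.13 (SE, FDR 1.58e-09). Col14a1, a collagen on the surface of fibrils, rose from 23.7, 19.6 and 14.1 to 619, 552 and 429 CPM, and Il1rn, the interleukin-1 receptor antagonist, from 11.7, 13.4 and 19.6 to 373, 346 and 455. These were the most abundant of the 12 in KO. The others named were Fndc1, Gda, a guanine deaminase, Prelp, a leucine-rich matrix proteoglycan, Aldh3a1, an aldehyde dehydrogenase, Crip1, and F5, coagulation factor V. Their log2 fold changes ran from 4.59 in F5 to 5.26 in Fndc1. All of these genes, falls and rises, kept their call when any 1 of the 12 libraries was left out, and each was called in static culture with the same direction, from -5.68 in Epha3 to 6.77 in Anxa8.

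**Figure D2:**
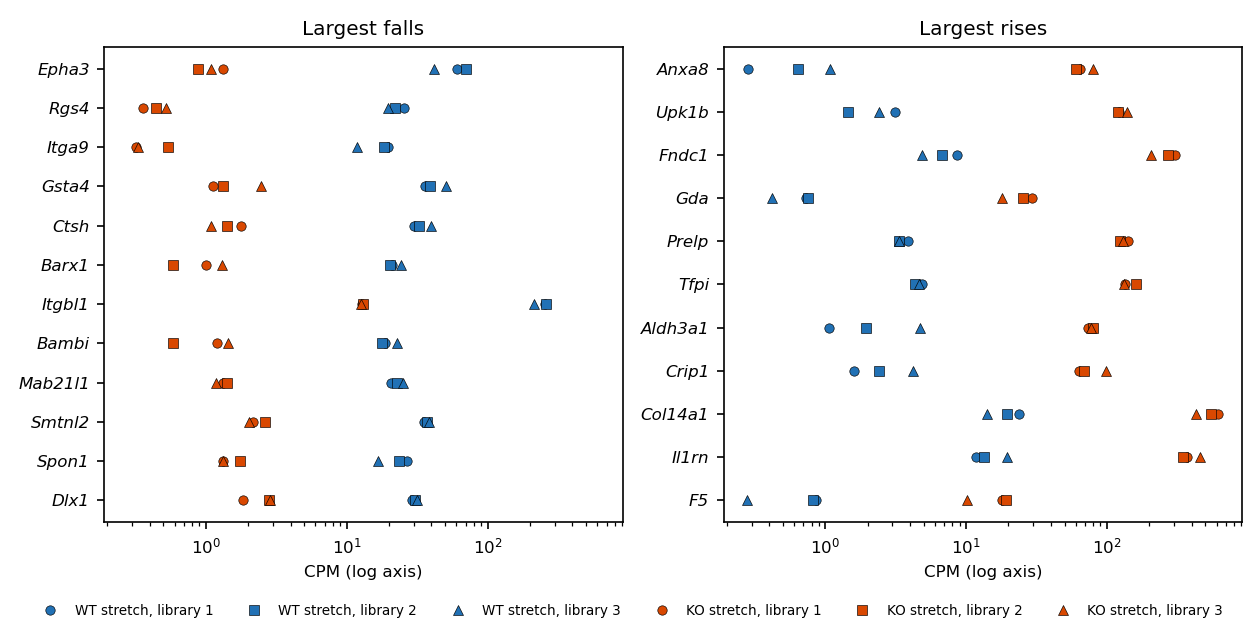
CPM on a log axis of the largest falls and rises described in the text, in each stretched library, WT in blue and KO in orange, with circles, squares and triangles for libraries 1, 2 and 3. WT and KO libraries do not overlap for any of these genes, which the rule for naming them required.

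Genes were also selected for a genotype difference that was larger under stretch than in static culture. The rule asked for FDR under 0.05 and at least a 2-fold difference under stretch, a mean log2 CPM of at least 1, and a static difference of opposite sign or at most 0.5 of the stretched one. It found 22 genes, 0.148% of those tested, of which 14 were lower and 8 higher in stretched KO. Since the rule used both differences, their contrast is a description. Just inside it lay Rab15 and Cav3, with static differences 0.48 and 0.50 of the stretched ones, and just outside lay Prom1 and Slc7a2, both at 0.52. The interaction, the stretched minus the static genotype difference, was tested over all genes. It was called for 0 genes (0.0%) by edgeR without the block, where 330 genes had an unadjusted p under 0.05, and for 9 by DESeq2. With the block it was called for 13 genes (0.0877%), 4 above 0 (0.027%) and 9 below (0.0607%). Of the 22 stretch-leaning genes, 14 had an unadjusted interaction p under 0.05 without the block, and 3 were among those 13, Cnn1 and Csrp2 included. The genotype difference of 3 of the 22 was itself called in static culture.

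Cnn1, calponin 1, is an actin-binding protein of the contractile apparatus. It was at 174, 151 and 184 CPM in stretched WT and 68.9, 73.1 and 92.2 in stretched KO, a log2 fold change of -1.12 ± 0.14 (SE, FDR 0.000118). In static culture it was at 90.3, 108 and 105 CPM in WT and 72.4, 73.4 and 91.3 in KO, a log2 fold change of -0.35 that did not pass (FDR 0.105). The 3 stretched WT libraries were thus higher than all 9 others. The interaction was -0.77 ± 0.20 without the block, with an unadjusted p of 0.00235 and an FDR of 1.0 by edgeR's test, and -0.77 ± 0.12 with it (FDR 0.0232).

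Csrp2, a LIM-domain protein of smooth muscle known as a cofactor of SRF, had the same order of groups. It was at 100.2, 99.4 and 121 CPM in stretched WT and 40.7, 46.9 and 63.5 in stretched KO, and at 42.7, 50.9 and 51.5 in static WT and 35.3, 35.4 and 43.9 in static KO. Stretched WT again lay above all other libraries. The log2 fold change was -1.09 ± 0.17 (SE, FDR 0.000551) under stretch and -0.34 in static culture (FDR 0.201), and the interaction with the block was -0.76 ± 0.11 (FDR 0.0232). Actg2, the enteric smooth muscle actin, was at 7.16, 7.11 and 6.96 CPM in stretched WT and 3.01, 2.99 and 1.9 in stretched KO, without overlap. Its interaction of -0.83 ± 0.31 did not pass with the block (FDR 0.687).

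Rgcc, a regulator of the cell cycle, had the largest interaction of the named stretch-leaning genes, -1.81 ± 0.41. It was at 3.38, 4.47 and 5.32 CPM in stretched WT and 0.642, 0.783 and 1.24 in stretched KO, so few reads were behind it, and the interaction did not pass with the block (FDR 0.13).

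Cav3, the muscle caveolin, was at 6.78 ± 1.1 CPM in stretched WT and 1.79 ± 0.417 in stretched KO, and at 8.98 ± 1.43 and 4.66 ± 0.642 in the static groups (SD, n = 3). The stretched KO libraries were the lowest of the 12. The other named falls were Fam189a2, Eva1a and Cables1, with log2 fold changes of -2.03, -1.62 and -1.22. Among the rises, P2ry6, a receptor for UDP, was at 14.7, 11.5 and 10.5 CPM in stretched WT and 24.4, 23.9 and 27.6 in stretched KO. It rose by 1.05 on the log2 scale, against 0.43 in static culture. Trpv6, a calcium channel, rose by 1.70 from a mean of 1.1 CPM. Rab15, Kif5a and Pdzk1 rose by 1.23, 1.08 and 1.02 from means of 1.41 to 2.27 CPM. The call of Kif5a was lost without any 1 of 5 stretched libraries, all except library 3 of KO. Pdzk1 lost its call without any 1 of the 3 stretched WT libraries or without library 3 of KO (log2 fold change 0.59, FDR 0.111). Without that KO library the rule found 35 genes, 17 higher and 18 lower, and the interactions of Cnn1 and Csrp2 were -0.91 and -0.95.

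**Figure D3:**
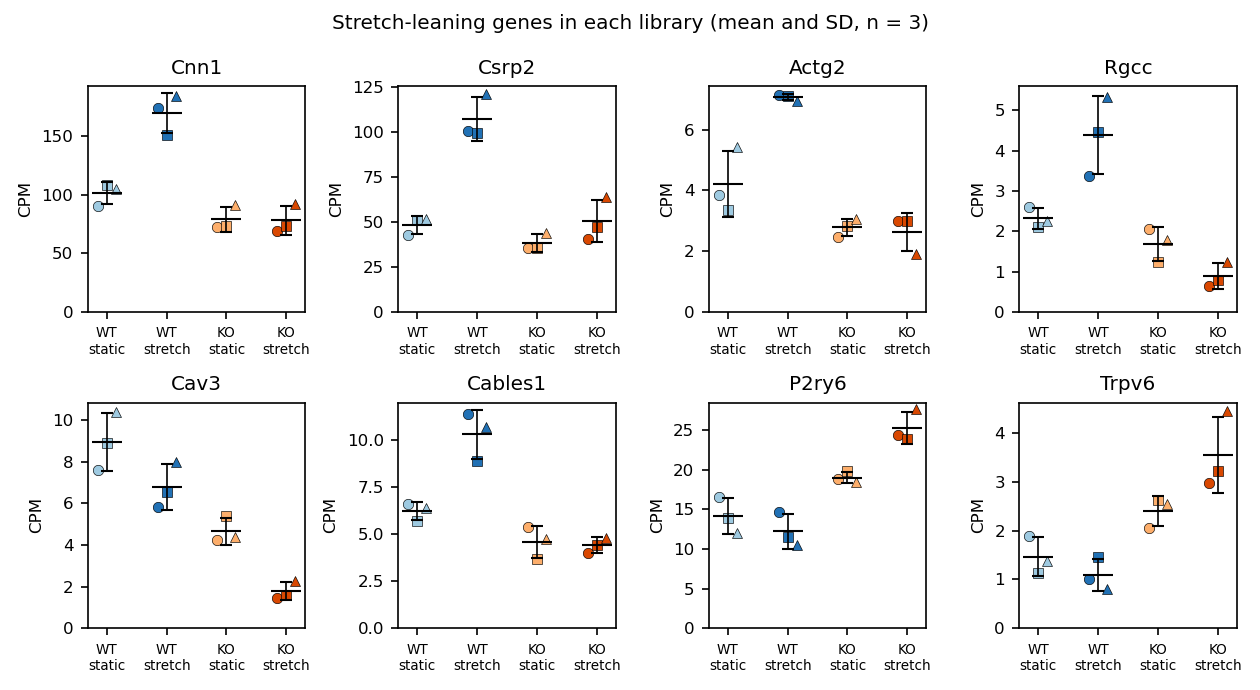
CPM of 8 stretch-leaning genes in every library by group, with the mean and SD of 3 libraries, circles, squares and triangles for libraries 1, 2 and 3, and a vertical axis from 0. Cnn1 and Csrp2 are highest in stretched WT, whereas Cav3 is lowest in stretched KO.

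Contractile genes were mostly lower in stretched KO. Of 23 tested members, 10 fell and 2 rose, with a median log2 fold change of -0.49 against 0.00 for all genes. For this and the other lists, the shares over all tested genes were 11.9% higher and 8.7% lower, and 19.3% and 18.5% with the block. Acta2, smooth muscle alpha-actin, was at 2368, 2110 and 2327 CPM in WT and 829.9, 877 and 1039 in KO, a log2 fold change of -1.31 ± 0.12 (SE, FDR 1.1e-05). Lmod1, which nucleates actin filaments in smooth muscle, fell by 1.18, Casq2, a calcium store protein, by 2.50, and Tpm1 and Cald1, which regulate actin filaments, by 0.50 and 0.80. Not all members went this way. Synpo2, an actin-bundling protein, rose by 3.85, and Smtn, smoothelin, by 0.38, a call lost without library 2 of stretched WT. Tagln and Myh11 did not pass, at -0.40 (FDR 0.143) and 0.19 (FDR 0.662), and neither did Myocd, the cofactor that drives contractile genes with SRF, at 2.08 (FDR 0.0591). Without library 3 of KO, both Tagln (-0.58, FDR 0.0415) and Myocd (2.51, FDR 0.0212) passed. Both also passed with the block (FDR 0.000281 and 1.31e-08). Pln also fell, but 16.1% of its exon reads mapped uniquely, so its value is uncertain.

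In static culture 6 contractile members fell and 3 rose, with a median of -0.25. The interaction was below 0 for 19 of 23 members, or 82.6%, against 51.7% of all genes, and for 18 without library 3 of KO. For actin and focal adhesion genes it was below 0 for 21 of 27 members, or 77.8%, and for 18 without that library. Of those 27 members, 9 fell and 2 rose, and with the block 3 rose and 18 fell. Besides Csrp2, the LIM-domain proteins Fhl2 and Fhl1 fell by 0.89 and 0.63 on the log2 scale. Shares this uneven were not particular to these lists, and some lists leaned the other way. The interaction was above 0 for 17 of 21 collagens, 23 of 28 ion channels and 17 of 23 TGF-beta signalling genes.

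**Figure D4:**
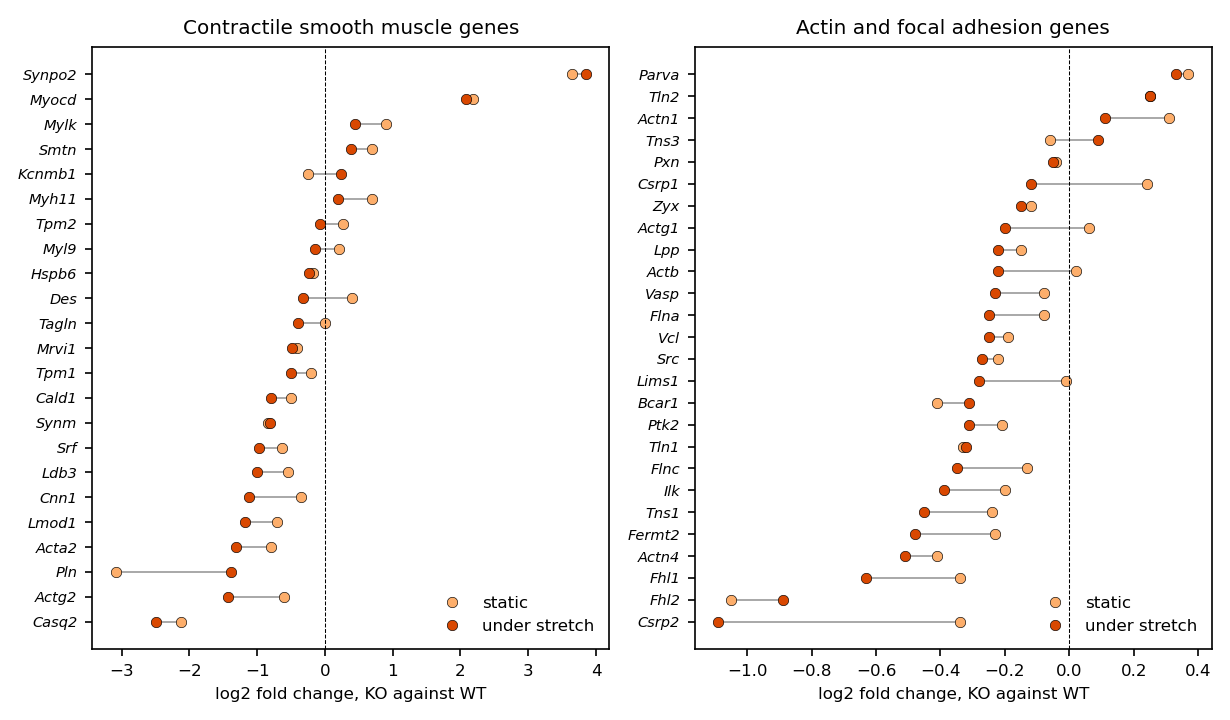
Log2 fold change of KO against WT for contractile genes (left) and actin or focal adhesion genes (right), static in light orange and under stretch in dark orange. The stretched value is the lower one for 19 contractile and 21 actin or focal adhesion genes.

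Srf itself fell, from 104, 93.2 and 90.3 CPM in WT to 43.7, 51.7 and 50.4 in KO, a log2 fold change of -0.98 ± 0.10 (SE, FDR 2.1e-05). Its groups did not overlap. SRF binds the CArG box, in which CC and GG enclose a run of A and T. RefSeq promoter windows (build GRCr8, 250 bases before to 50 after the gene start) were searched for it on both strands, and it was present for 1.77% of 27457 genes. Of 17 contractile genes with a window, 2 held it, Srf and Ldb3, a Z-disc protein that fell by 1.0. Of 19 actin and focal adhesion genes, 3 did, Fhl1 and Fhl2, which fell, and Actg1, at -0.20 (FDR 0.355). It was in 0 of the 12 stretch-leaning genes with a window, too few windows to show a lack at a share of 1.77%. The windows of Srf, Ldb3 and Fhl1 are shown 5′ to 3′ because the factor, a contractile gene and a LIM-domain gene with the box all fell. Capitals mark the CArG boxes, and a match describes letters only.
Srf, chr9:21923826-21924125, plus strand: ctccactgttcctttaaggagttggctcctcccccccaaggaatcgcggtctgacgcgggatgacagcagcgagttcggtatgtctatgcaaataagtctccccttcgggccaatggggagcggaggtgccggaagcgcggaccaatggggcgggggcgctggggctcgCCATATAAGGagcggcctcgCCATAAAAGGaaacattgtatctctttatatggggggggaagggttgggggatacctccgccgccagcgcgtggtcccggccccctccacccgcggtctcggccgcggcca
Ldb3, chr16:9924630-9924929, minus strand: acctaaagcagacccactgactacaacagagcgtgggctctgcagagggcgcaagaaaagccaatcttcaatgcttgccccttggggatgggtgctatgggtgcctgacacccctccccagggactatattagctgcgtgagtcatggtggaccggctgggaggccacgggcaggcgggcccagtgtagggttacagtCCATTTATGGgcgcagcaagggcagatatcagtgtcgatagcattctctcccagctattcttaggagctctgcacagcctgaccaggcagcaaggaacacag
Fhl1, chrX:139638246-139638545, plus strand: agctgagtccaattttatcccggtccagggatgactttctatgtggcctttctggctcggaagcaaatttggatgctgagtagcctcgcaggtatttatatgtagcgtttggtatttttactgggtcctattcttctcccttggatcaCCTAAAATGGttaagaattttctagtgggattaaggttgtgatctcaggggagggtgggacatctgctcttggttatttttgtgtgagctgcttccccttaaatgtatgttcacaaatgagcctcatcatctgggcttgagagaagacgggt

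Interferon response and antigen presentation genes had the highest share of members called among the lists. Of 29 tested members, 24 rose and 0 fell, with a median log2 fold change of 1.41 under stretch. Static culture gave 25 and 0, with a median of 1.42. Irf7, a transcription factor that amplifies the interferon response, was at 26.3, 22.3 and 27.4 CPM in WT and 152, 112 and 166 in KO. The groups were far apart, with a log2 fold change of 2.51 ± 0.19 (SE, FDR 2.09e-06). Psmb8, a subunit of the immunoproteasome, rose from 2.93, 2.43 and 3.32 to 24.6, 23 and 35.3 CPM, and Mx2, an antiviral GTPase, from 39.5, 29.3 and 38 to 394, 262 and 314. Neither overlapped between genotypes. Rsad2, the antiviral protein viperin, rose by 2.05, and Oas1a, which senses double-stranded RNA, by 2.79, with 73.8% uniquely mapped reads.

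The interferon-stimulated response element, read by interferon regulatory factors, holds paired GAAA letters. The pattern GAAA, then 2 bases of any kind, then GAAA, on either strand, was in 4.12% of all promoter windows and in 13 of the 20 genes of the interferon list with a window. Of those 13, 11 rose and 0 fell. Of all 29 tested members of the list, with or without the pattern, 24 rose and 0 fell (82.8% called). The pattern was in 0 of 12 stretch-leaning genes with a window, too few windows to show a lack at a share of 4.12%. The windows of Irf7, Rsad2, Oas1a and Psmb8 are shown 5′ to 3′ as a regulator, antiviral effectors and an antigen-processing gene that rose. Capitals mark the match, read as TTTC where it lies on the other strand, and 2 matches overlap in Oas1a.
Irf7, chr1:205799974-205800273, minus strand: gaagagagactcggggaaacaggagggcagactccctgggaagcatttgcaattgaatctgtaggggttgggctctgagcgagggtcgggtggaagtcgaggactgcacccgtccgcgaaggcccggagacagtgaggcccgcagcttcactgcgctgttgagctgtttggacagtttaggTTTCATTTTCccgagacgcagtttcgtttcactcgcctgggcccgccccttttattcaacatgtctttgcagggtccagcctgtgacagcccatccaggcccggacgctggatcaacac
Rsad2, chr6:48788071-48788370, minus strand: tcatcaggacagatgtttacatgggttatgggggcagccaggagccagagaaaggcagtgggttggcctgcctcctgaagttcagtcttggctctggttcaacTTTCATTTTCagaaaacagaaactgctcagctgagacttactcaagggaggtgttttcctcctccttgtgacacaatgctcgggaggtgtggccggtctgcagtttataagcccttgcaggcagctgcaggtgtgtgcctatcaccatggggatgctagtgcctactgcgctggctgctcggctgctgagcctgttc
Oas1a, chr12:41330216-41330515, plus strand: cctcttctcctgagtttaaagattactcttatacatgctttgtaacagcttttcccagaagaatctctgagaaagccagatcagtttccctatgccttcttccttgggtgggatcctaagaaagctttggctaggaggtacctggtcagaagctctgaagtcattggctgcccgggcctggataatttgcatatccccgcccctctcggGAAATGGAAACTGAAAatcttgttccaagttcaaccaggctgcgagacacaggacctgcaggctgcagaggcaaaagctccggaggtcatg
Psmb8, chr20:4656982-4657281, minus strand: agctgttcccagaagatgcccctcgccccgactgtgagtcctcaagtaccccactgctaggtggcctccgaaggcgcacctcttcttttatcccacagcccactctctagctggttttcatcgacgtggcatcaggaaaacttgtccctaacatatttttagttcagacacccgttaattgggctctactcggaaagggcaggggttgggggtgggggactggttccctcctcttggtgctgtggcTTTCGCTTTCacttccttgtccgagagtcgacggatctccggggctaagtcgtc

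Chemokines, cytokines and NF-kB response genes had 14 of 27 members higher and 3 lower, with a median log2 fold change of 0.84. Cxcl1, which attracts neutrophils, rose from 15.7, 16.9 and 27.3 CPM in WT to 147, 159.9 and 174 in KO, and Ccl2 and Ccl7, which attract monocytes, rose by 2.30 and 2.51 on the log2 scale. Il33, an alarmin cytokine, rose by 2.18 from a mean of 0.31 CPM, a call lost without library 2 of stretched KO or library 1 or 2 of stretched WT. Il6 went the other way, from 3.01, 2.86 and 3.22 CPM in WT to 0.642, 0.734 and 1.16 in KO. Complement genes C1s and C3 rose by 4.56 and 3.05, while Masp1 and C6 fell by 4.12 and 2.03, so that 4 rose and 3 fell of 11. The call of C6 was lost without library 2 of stretched KO. Klf4, an early response factor known to restrain contractile genes, rose from 6.51, 7.47 and 8.15 CPM to 160.4, 158 and 170.5, a log2 fold change of 4.46 ± 0.13 (SE, FDR 4.03e-09). Among immediate early and MAP kinase feedback genes 8 rose and 4 fell of 27, and with the block 11 rose and 7 fell, Dusp6 and Egr2 rising by 2.50 and 2.70 and Spry1 falling by 1.90.

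Among thrombospondins and receptors 3 rose and 2 fell of 12, Thbs1 among them, with the block 5 rose and 2 fell, and without library 3 of KO 2 rose and 1 fell. Thbs2, the thrombospondin most like Tsp1, rose from 1.83, 1.39 and 1.68 CPM in WT to 9.03, 5.92 and 6.6 in KO, a log2 fold change of 2.13 ± 0.20 (SE, FDR 1.25e-05). Its groups did not overlap. Cd47 rose by 0.98, and Comp, a cartilage thrombospondin, by 1.37, a call lost without library 2 or 3 of either stretched group. Among integrins 3 rose and 5 fell of 18, with the block 5 rose and 7 fell, and without library 3 of KO 3 rose and 3 fell. Itga7 and Itgb4 rose by 1.92 and 2.75, and Itga3 and Itga6 fell by 1.87 and 1.14.

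Wnt and Notch genes were mostly lower, as 3 rose and 14 fell of 27, with a median log2 fold change of -0.68. Jag1, a Notch ligand of the vessel wall, was at 407, 379 and 261 CPM in WT and 63.6, 55 and 45 in KO, a log2 fold change of -2.68 ± 0.19 (SE, FDR 1.18e-06). Its KO libraries all lay below its WT libraries. The Notch targets Hey1 and Hey2 fell by 2.58 and 1.98, the ligand Wnt2 by 1.85, and the receptor Notch3 by 0.84, the last a call lost without library 1 of stretched WT.

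Matrix genes split. Eln, elastin, was at 5060.4, 4206 and 3677 CPM in WT and 1129, 1093 and 1078 in KO, a log2 fold change of -1.97 ± 0.13 (SE, FDR 7.86e-07), and KO lay below WT in every library. Fbln5 and Lox, which assemble and crosslink elastin, fell by 1.92 and 0.88, while Efemp1, Mfap5 and the microfibril protein Fbn1 rose by 3.26, 2.01 and 1.93. The genes related to Lox went both ways, as Loxl1 and Loxl4 rose by 0.70 and 0.86 and Loxl2 fell by 0.68. Of 21 elastic fibre and crosslinking genes, 9 rose and 6 fell. Among collagens 2 rose and 9 fell of 21, with the block 4 rose and 12 fell, and without library 3 of KO 3 rose and 3 fell. Col3a1 fell by 0.98 and Col27a1 by 1.48, the latter a call lost without library 3 of KO or library 1 of stretched WT, and Col8a1 rose by 2.14. Matricellular genes gave 3 higher and 4 lower of 17 (6 and 5 with the block). Tgfbi, Postn and Sparc fell by 2.35, 1.27 and 0.79 and Lama2 rose by 2.97. Of proteoglycans, 4 rose and 5 fell of 19, Acan falling by 2.39. The values of Ogn and Aspn, which also fell, are uncertain, with 4.36% and 0% uniquely mapped reads. Of matrix proteases and inhibitors, 5 rose and 7 fell of 20, and with the block 9 rose and 8 fell. Mmp2, a gelatinase, rose by 2.27, and Ctsk, Adamts15 and Adamts12 fell by 2.71, 2.53 and 2.29.

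Targets of YAP and TAZ went in both directions, as 3 rose and 6 fell of 22, with a median log2 fold change of -0.01, and with the block 7 rose and 8 fell. F3, tissue factor, was at 4.35, 4.32 and 4.37 CPM in WT and 1.57, 0.587 and 1.6 in KO. It fell by 1.76 on the log2 scale, and Ccn1, a matricellular protein, fell by 1.34. Amotl2, Rbms3, Ajuba and Nuak2 fell by 0.48, 0.46, 0.45 and 0.41. Ccn2, the other classical CCN target, rose by 0.46, the receptor kinase Axl by 0.42 and Gadd45a by 0.60. The calls of Rbms3, Nuak2, Axl, Ccn2 and Gadd45a were each lost on leaving out at least 1 stretched library.

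Among Hippo and Rap2 components 4 rose and 6 fell of 26, and with the block 5 rose and 11 fell. Tnik, a kinase activated by Rap2, was at 6.91, 7 and 3.5 CPM in WT and 0.923, 1.42 and 0.745 in KO and fell by 2.52. The scaffold Wwc2 fell by 1.01, and the DNA-binding partners of YAP, Tead2 and Tead3, by 0.96 and 0.53, the latter with 72.1% uniquely mapped reads. Vgll4 and the kinase Stk3 fell by 0.35 and 0.34, each a call lost without any 1 of 5 stretched libraries. The small GTPases Rap2a and Rap2b rose by 0.51 and 0.52, Frmd6 by 0.35 and Wwc1 by 1.30. The calls of Rap2b and Frmd6 were lost without library 2 of stretched WT and library 2 of stretched KO respectively, and that of Rap2b also without library 3 of stretched KO or library 1 of stretched WT.

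TGF-beta signalling genes gave 5 higher and 6 lower of 23, with 10 lower with the block. Fstl3, an activin antagonist, fell by 3.56, while Fst, another, and Tgfbr3, a co-receptor, rose by 1.67 and 1.66. BMP and Id genes gave 4 higher and 2 lower of 17 (5 and 7 with the block). The ligands Bmp6 and Bmp4 rose by 3.33 and 0.91, as did their antagonists Chrd and Grem1, by 1.82 and 1.35. Of growth factors and receptors, 9 rose and 7 fell of 36, and with the block 9 rose and 13 fell. Angpt1, Ereg and Pdgfd, ligands of TIE2, EGF and PDGF receptors, rose by 4.11, 3.91 and 3.56, and Igfbp3 fell by 3.01. The level of Angpt1 was low, and its rise was 0.77 with limma on log2(RPKM + 1), an alternative described below that shrinks low genes. Of ion channels, 6 rose and 2 fell of 28, and with the block 8 rose and 5 fell. Cacna1c, the L-type calcium channel of smooth muscle, was at 46.6, 44.2 and 21 CPM in WT and 3.13, 4.36 and 2.73 in KO, and Trpc6, a cation channel, at 11.5, 9.72 and 9.51 and 0.682, 0.0979 and 0.442. Both fell, by 3.46 and 4.59, and the T-type channel Cacna1g and the potassium channel Kcnk2 rose by 3.54 and 3.46.

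Coagulation regulators moved in both directions, as 4 rose and 4 fell of 16. With Tfpi and F5, Thbd, the thrombin receptor that activates protein C, rose by 2.09, while F3 fell. Of p53 targets, 9 rose and 2 fell of 17, Gdf15, Ccng1 and Zmat3 rising by 3.87, 1.22 and 1.17 and Tp53inp1 falling by 1.71. Of NRF2 targets 7 rose and 0 fell of 16 (10 rose and 1 fell with the block), the quinone reductase Nqo1 rising by 2.06 and Osgin1 by 1.22. Of unfolded protein and integrated stress response genes 0 rose and 10 fell of 25, and with the block 0 rose and 15 fell. Trib3, Chac1 and Psat1, known targets of ATF4, fell by 1.32, 1.22 and 1.07. Of cell cycle genes 4 rose and 2 fell of 26, or 23.1%, near the 20.6% of all tested genes. With the block 6 cell cycle genes rose and 9 fell, and without library 3 of KO 3 rose and 1 fell. Among them were Ccnd1, rising by 0.71 and Ccnd2, falling by 2.78. Of glycolysis and hypoxia genes 6 rose and 4 fell of 24, and with the block 9 rose and 6 fell, the lactate exporter Slc16a3 rising by 2.33.

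Among Hox and other positional factors, which include Tbx, Gata, Fox and Twist genes, 11 rose and 10 fell of 33. The Hox genes Hoxc6, Hoxd9, Hoxb6 and Hoxc8 rose by 4.25, 4.23, 3.45 and 3.10. Of axon guidance genes 7 rose and 11 fell of 31, with the block 11 rose and 15 fell, and without library 3 of KO 8 rose and 8 fell. They include the receptor Robo2 falling by 3.44, Sema6a by 3.29 and Epha7 by 2.65, and Sema5a rising by 2.37. Of cholesterol synthesis genes 4 rose and 1 fell of 24, or 20.8%, near the 20.6% of all tested genes. With the block 5 cholesterol synthesis genes rose and 3 fell, and without library 3 of KO 2 rose and 2 fell. The interaction of the cholesterol synthesis genes was below 0 for 24 of 24 members (median -0.21), against 51.7% of all genes. Without library 3 of KO it was below 0 for 22, against 49.2% of all genes. Members of a list are not independent replicates.

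**Figure D5:**
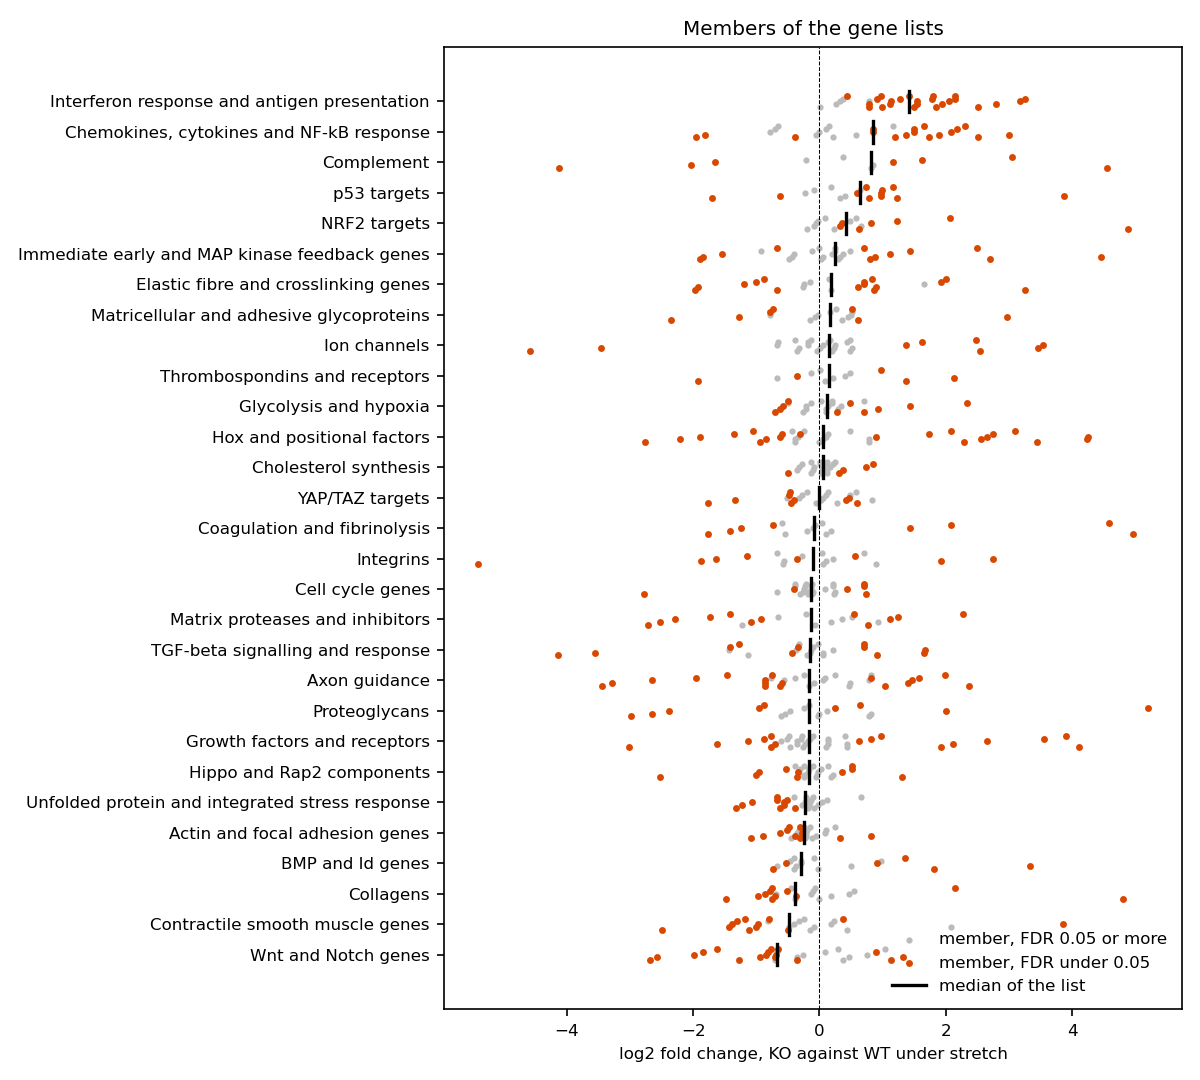
Log2 fold change of KO against WT under stretch for the tested members of 29 gene lists (orange, FDR under 0.05, and grey, 0.05 or more), ordered by the list's median (black bar). The interferon list has the highest median, 1.41, and the Wnt and Notch list the lowest, -0.68.

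In the first 45 Mb of chromosome 17 the 257 tested genes had a median log2 fold change of -0.25 under stretch against 0.00 elsewhere, and 20.6% of them fell against 8.49% elsewhere. In static culture the medians were -0.20 and 0.02. No rule for the edge of this window is given, so its values are a description and not a test. The authors' deposited table lists 1556 genes at FDR under 0.05 and 2-fold for the stretched genotypes, of which 1435 were among the 1466 found here with the same direction. This is 92.2% of the list in the authors' deposited table and 97.9% of the present one.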

How the data were processed

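Poly(A) RNA of 4 groups with 3 libraries each was sequenced, and per the submitters' processing notes and the labels, paired 36-base reads were processed in CLC Genomics Workbench 12.0 with Rnor_6.0. The deposited counts are whole exon reads per gene, and per the file headers a total and a unique count are given. The deposited RPKM values, which the authors scaled by exon length and depth, were used only in alternatives. The authors' fold change is a signed score (below 0 for a lower level), and their deposited p-value columns are false discovery rates. The strand setting, read trimming and release of the annotation are not given in the sources used here, so reads of overlapping antisense genes cannot be told apart.

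Total exon reads were tested in edgeR 4.0.16 (R 4.3.3) by the quasi-likelihood F test, with a minimum count of 10 in filterByExpr, TMM scaling, 1 mean for each of the 4 groups over all 12 libraries (8 residual degrees of freedom) and Benjamini-Hochberg adjustment over 14825 genes. The code was tested on simulated data. Libraries held 16766965 to 38024110 exon reads. After removal of group means, same-numbered stretched libraries correlated at 0.244, 0.26 and 0.54 across genes for numbers 1, 2 and 3. Stretched libraries of different number correlated at -0.417 to 0.308. Between numbers 1 and 2 the values were 0.229 and 0.308. Over all 4 groups, libraries numbered 3 correlated with each other at 0.432 to 0.581. The data thus set the libraries numbered 3 of every group apart and do not pair libraries 1 and 2. The block took the numbers to pair the samples all the same, an assumption that the labels do not give.

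Named genes are Thbs1, the 12 largest rises and falls (with no overlap between groups, a mean log2 CPM of 3 or more, at least 80% uniquely mapped reads, a named symbol), up to 8 stretch-leaning genes each way, and up to 4 called members of each of 38 lists, or all called members of the Hippo, Rap2, YAP and TAZ lists. Acta2, Actg1, Cald1, Fbln5, Il6, Itga6, Lmod1, Lox, Loxl1, Loxl2, Loxl4, Msln, Myh11, Myocd, Notch3, Rsad2, Smtn, Srf, Tagln and Tpm1 were chosen after their values were seen. A few genes that these rules name are not reported here. The members and lists were chosen with earlier results of these data known. Promoters are RefSeq windows on GRCr8, and gene coordinates are those of the deposited table. Alternatives were RLE and upper-quartile scaling, no filter and a minimum count of 50, DESeq2 1.42.0, unique reads, limma 3.58.1 on log2(RPKM + 0.1) and log2(RPKM + 1), the 6 stretched libraries only, a replicate block, libraries 1 and 2 only, and leaving out each library.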

Additional observations from a re-analysis of the deposited data

Results flagged for a closer look

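For 13 genes the genotype difference under stretch was unlike that in static culture in the fit with the library number as a block (edgeR, FDR under 0.05 for the interaction), while 0 passed without the block. The block rests on library numbers that the labels do not describe as pairs. Values are given for 12 of the 13 genes, as the stretched minus the static log2 fold change. It was below 0 for Aldh1a3 (-1.15), which makes retinoic acid, Tnfaip6 (-0.81), a hyaluronan-binding protein, Cnn1 (-0.77), Csrp2 (-0.76), Osr1 (-0.59), Ankrd1 (-0.56), a YAP target, and Maoa (-0.52), monoamine oxidase A. It was above 0 for Vegfc (0.74), a lymphatic growth factor, Agpat5 (0.73) and Adamtsl3 (0.61). Cxcl10 (-1.11) and Pln (1.71) are uncertain, with 38.1% and 16.1% uniquely mapped reads.

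These genes reach such a value in different ways. Aldh1a3 was at 39.6, 41.3 and 32.9 CPM in stretched WT and 33, 32 and 26.9 in stretched KO, against 16.6, 15.8 and 14.5 and 32.6, 26.4 and 25.2 in the static groups. Its genotype difference was called in static culture (log2 fold change 0.84) and not under stretch, at -0.31 (FDR 0.131). Tnfaip6 was at 0.76 in static culture and at -0.05 (FDR 0.834) under stretch. Vegfc was lower in KO in both conditions, with log2 fold changes of -1.13 under stretch and -1.87 in static culture.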

How the results depend on the processing

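The number of changed genes (3051) was 5601 with the replicate block and 5103 with libraries 1 and 2 only, and ran from 2345 to 3207 on leaving out each library. The number changed at least 2-fold (1466) was 683 with limma on log2(RPKM + 1), whose pseudocount shrinks low genes by construction, and ran from 1323 to 1495 on leaving out each library. The interaction count (0) was 9 by DESeq2, 7 with log2(RPKM + 1), 13 with the replicate block and 10 with libraries 1 and 2 only, and was 0 to 0 on leaving out each library. The stretch-leaning count (22) was 8 with log2(RPKM + 1), 40 with libraries 1 and 2 only and 18 to 35 on leaving out each library, highest without library 3 of stretched KO. Otherwise the cause was not tested. These counts stayed within 1.5 times under the other alternatives. Of 173 named genes 171 were called, 147 of them also on leaving out each library, and 0 had a reversed direction. The block changed no other call among the named genes than those given beside their results. Scaling moved the median of all genes by at most 0.02 on the log2 scale. Genes at a few CPM rest on few reads.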
